A study of Triticum aestivum with 4 samples.

Results

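Heat was tested in flag leaves of the wheat cultivar Yangmai 16 (*Triticum aestivum*, bread wheat), on plants that descended from unprimed parents, by setting the heated group NH against the unheated group NC. These are 2 of the 4 arrays of the series, chosen by their labels alone, with 1 array for each group. NC and NH plants came from seed of parents that had no heat priming. From day 10 after anthesis and for 6 days, NH plants stood at 34 °C by day with nights of 30 °C, and NC plants at 26 °C by day with nights of 22 °C. The remaining arrays, PC and PH, had the same unheated and heated regimes but came from primed parents. Those parents had received 32 °C days with 28 °C nights lasting 2 days at each of leaf stages 7 and 9, and later 34 °C days with 30 °C nights lasting 7 days, begun 10 days past anthesis. PC and PH serve here only as a further array without and with heat. Plants of different treatments were kept in separate chambers, so chamber and temperature cannot be told apart, and the sources used here do not say how many plants went into a sample.

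The flag leaf is the uppermost leaf of the wheat shoot and feeds the filling grain with sugars from photosynthesis. In leaves, light is captured by the photosystems, electrons pass through the cytochrome b6/f complex, and the Calvin cycle fixes carbon into triose phosphates that go on to sucrose and starch. Photosynthesis is known to be among the first processes of a leaf to suffer in heat, while heat shock proteins, which keep other proteins folded, are a known part of the heat response of plants.

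Each array gives a linear intensity for each probe set, a set of short probes. Probe sets ending in _a_at, _s_at or _x_at may match more than 1 transcript, and the others are meant for 1. Values below 12.3, the median of all values of the 4 arrays, were raised to that floor, and a probe set counted as measured when NC or NH exceeded it. A probe set or gene is said below to rise or fall when its NH intensity was at least 2-fold above or below its NC intensity, which is a rule of size and not a test, since a single array per group gives no replicate error and no p-value. A fold is written "at least" where the dim side lay below the floor. In bulk leaf RNA, fewer cells of a type and less RNA per cell cannot be told apart.

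Of 61115 probe sets, 32695 were measured in this comparison, 30938 exceeding the floor on NC and 30265 on NH. Across the array 3615 probe sets rose, 11.1% of those measured, and 3440 fell, 10.5%, so that the changes were close to balanced in number. The median log2 difference over all measured probe sets was 0.02. Of the measured probe sets, 28508 exceeded the floor on both arrays, 1757 on NH only and 2430 on NC only. Those seen on 1 array only were mostly dim: 375 of the 1757 passed 2-fold upward, and 559 of the 2430 passed it downward.

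**Figure D1:**
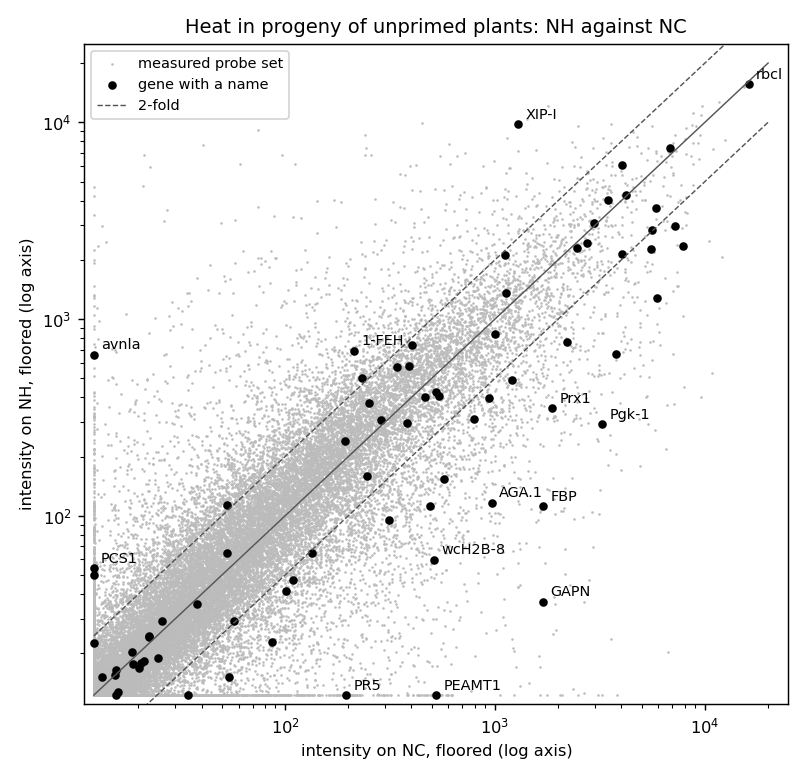
Intensity on NH (vertical, log axis) against intensity on NC (horizontal, log axis) for the 32695 measured probe sets (grey points) and for the 76 measured genes that carry a name (black points), with values below 12.3 drawn at that floor; the solid line marks equality and the dashed lines 2-fold. Of the labelled genes, avnla, XIP-I, PCS1 and 1-FEH lie above the upper dashed line, rbcl lies on the line of equality, and the others lie below the lower one.

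PC and NC, the arrays without heat, show how far 2 arrays of unheated leaves stood apart, although they also differ in the priming of the parents. On PC, 0.342% of 31915 probe sets were 2-fold higher than on NC and 0.420% lower, 0.761% in all, against 21.6% for NH and NC. The difference in scale held over the whole range of brightness. Among probe sets with a geometric mean intensity up to 50 over the 4 arrays, 13.3% passed 2-fold between NH and NC and 0.816% between PC and NC. From 50 to 200 these shares were 29.1% and 0.835%, from 200 to 1000 they were 32.0% and 0.479%, and above 1000 they were 32.2% and 0.694%. In these 4 ranges, 99% of probe sets lay within a log2 difference of 0.94, 0.94, 0.81 and 0.88 between PC and NC, all below the 2-fold line. With the dim range set aside, about the same share of probe sets thus passed 2-fold with heat at every brightness.

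**Figure D2:**
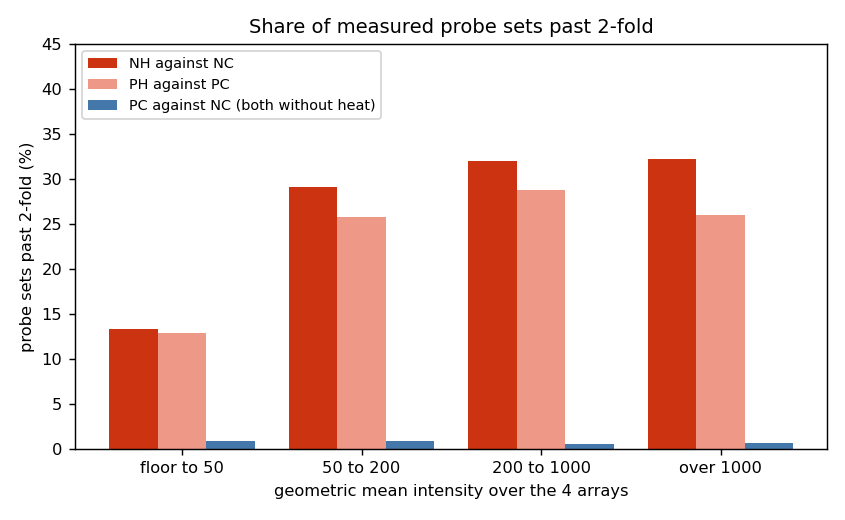
Share of measured probe sets past 2-fold in either direction (vertical, percent) in 4 ranges of geometric mean intensity over the 4 arrays (horizontal), for NH against NC, PH against PC and PC against NC. Between PC and NC the bars stay below 1%, while between NH and NC they run from 13.3% in the dimmest range to 32.2% in the brightest.

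Differences of 4-fold or more between NH and NC were met again more often than those of 2- to 4-fold in PH against PC, a pair that shares no array with the first. Over all measured probe sets of that pair, 9.69% were 2-fold higher and 9.99% lower, 19.7% in all. Of 2645 probe sets that rose 2- to 4-fold in unprimed progeny, 53.8% also passed 2-fold upward there, against 91.3% of 572 that rose 4- to 8-fold and 98.7% of 230 that rose 8- to 16-fold. Among the 168 that rose 16-fold or more, 167 did so. On the falling side the shares were 62.6% of 2203, 95.6% of 768 and 99.6% of 266, and 201 of the 203 probe sets that fell 16-fold or more also fell in PH against PC. The other 2 of these 203 passed 2-fold in the opposite direction.

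**Figure D3:**
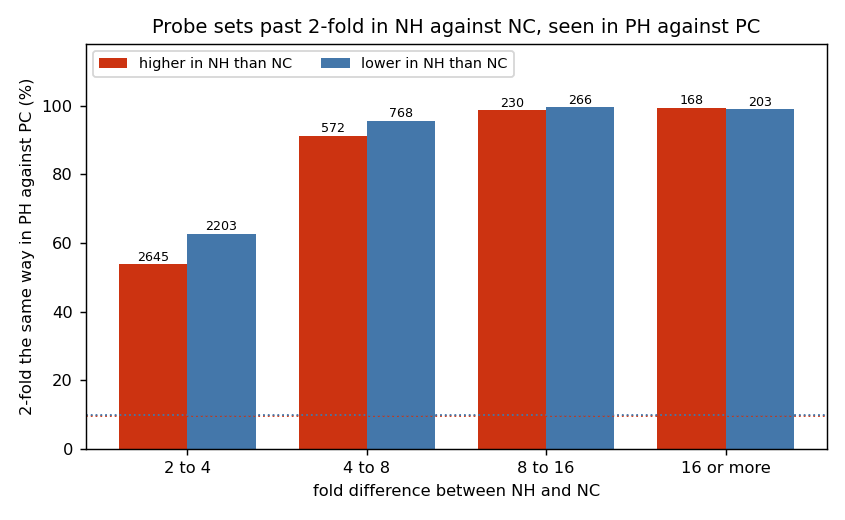
Share of probe sets that also passed 2-fold in the same direction in PH against PC (vertical, percent), by the fold difference between NH and NC (horizontal), for probe sets higher and lower in NH; the number above each bar is the count of probe sets, and the dotted lines are the shares of all measured probe sets that passed 2-fold in PH against PC, 9.69% higher and 9.99% lower. The share climbs from 53.8% and 62.6% at 2- to 4-fold to more than 90% in each larger class.

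The platform annotation gives a gene symbol to 1273 probe sets, which stand for 771 genes. For 669 of these genes the symbol is a locus number alone, and 102 carry a name as symbol or synonym. Each gene was read from its brightest probe set. Of the 605 genes measured, 88 rose, 14.5%, and 111 fell, 18.3%, with a median log2 difference of -0.07. The genes that carry a name leaned further downward: of 76 measured, 7 rose (9.21%) and 26 fell (34.2%). Of 529 measured genes with a locus number alone, 81 rose (15.3%) and 85 fell (16.1%). In PH against PC, where 11.0% of measured genes were 2-fold higher and 17.5% lower, 57 of the 88 rising genes also passed 2-fold upward and 86 of the 111 falling genes downward.

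Probe sets of the same gene did not pass 2-fold in opposite directions, but often differed in whether they passed it. Of the 205 genes with more than 1 measured probe set, 116 had none past 2-fold, 25 had all of them rising and 22 all of them falling. In 15 genes some but not all rose, and in 27 some but not all fell, whereas 0 genes had both a rising and a falling probe set. All 4 probe sets of Prx1 fell, by 2.12 to 2.69 on the log2 scale. In wcH2B-8, a gene of histone H2B, 3 of 4 fell and the fourth had -0.08. Over all probe sets, 5300 ID numbers were shared by several measured probe sets. Of these, 1109 had several probe sets past 2-fold, which all went one way in 1090. Probe sets with the same ID number are not separate observations, so this agreement is no independent check of direction.

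The 12 largest rises among genes above the floor on both arrays ran from 7.49-fold to 124-fold, and 11 of the 12 are genes with a locus number alone, whose function the annotation does not give. LOC606323 had 74.1 on NC and 43.9 on PC, and 9166 on NH and 8894 on PH. LOC100037518 had 97.1 on NC and 94.1 on PC, and 6848 on NH and 4747 on PH. LOC542830 had 74.2 on NC and 59.8 on PC without heat, against 3696 on NH and 2934 on PH. In all 3 genes each heated array was far above each unheated one. LOC543060 rose 32.2-fold from 51.3 to 1651, and LOC543338 rose 29.1-fold from 54.9 to 1597. LOC606307, at 31.8 and 948, shares its ID number with LOC100037518, so those rises are not separate observations. LOC606308 rose 24.9-fold from 76.5 to 1906, and its second probe set had a log2 difference of 4.58 beside 4.64. LOC606366 rose 14.8-fold, and its 3 measured probe sets lay between 2.79 and 3.89 on the log2 scale.

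Rises of 2 of these genes rest on less even values. LOC100125738 had 15.6 on NC and 682 on NH, a 43.7-fold difference, but 10.1 on PC and 132 on PH. LOC543150 had 200 on NC and 50.1 on PC without heat, against 1853 on NH and 408 on PH. Its unheated arrays thus differed by 1.99 on the log2 scale, the widest such gap among the 12, and its other probe set, of a type meant for a single transcript, had a log2 difference of 0.01 between NH and NC. LOC543101 rose 7.49-fold, from 241 to 1807, with 216 on PC and 1598 on PH. For LOC606307 and LOC606366 no value could be had from a probe set of the type meant for a single transcript. All 12 genes also passed 2-fold upward in PH against PC.

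The 12 largest falls ran from 11.1-fold to 327-fold. LOC542947 had 6673 on NC and 5919 on PC, and 20.4 on NH and 31.3 on PH. LOC543355 had 2648 on NC and 2887 on PC without heat, against 36.4 on NH and 96.2 on PH, and its second probe set fell by 7.72 on the log2 scale beside 6.19. In both genes each heated array lay far below each unheated one. LOC543436 fell 50.8-fold from 1200 to 23.6, LOC542825 23.8-fold from 411 to 17.2 and LOC542839 20.0-fold from 428 to 21.4. For LOC542947 and LOC543436 no value could be had from a probe set of the type meant for a single transcript. LOC780599 fell 41.4-fold from 803 to 19.4 on its brightest probe set, a log2 difference of -5.37, while its other measured probe sets gave -3.08 and -2.45. LOC542871 fell 15.6-fold, from 4858 to 312, and its second probe set gave -4.03 beside -3.96. LOC543420 fell 15.3-fold from 1650 to 108. LOC543106 fell 35.8-fold from 1091 to 30.5, while its other measured probe set had -0.58. The 3 genes with names in this set were GAPN, FBP and Pgk-1, described below. All 12 also passed 2-fold downward in PH against PC, and NC and PC lay within 0.31 of each other on the log2 scale in each.

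**Figure D4:**
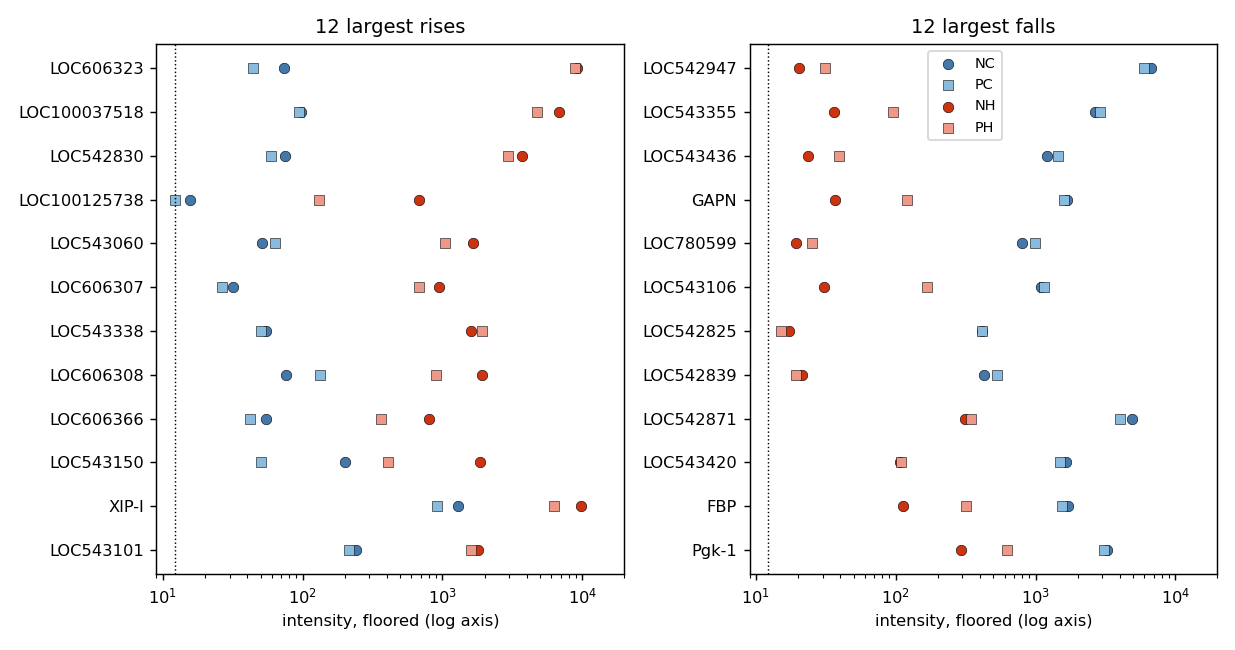
Intensity (horizontal, log axis) on each of the 4 arrays for the 12 genes with the largest rise (left) and the 12 with the largest fall (right) from NC to NH among genes above the floor on both; circles are progeny of unprimed and squares of primed plants, blue without and red with heat, and the dotted line is the floor of 12.3. In each of the 24 genes the heated arrays lie on the same side of both unheated arrays, with LOC543150 the closest.

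Among genes that crossed the floor, 5 rose from below it, and 3 of these also passed 2-fold upward in PH against PC. The avenin-like gene avnla, of a family of seed storage proteins, had 11.2 on NC and 659 on NH, a rise of at least 53.7-fold, and its second probe set rose by 4.76 on the log2 scale. LOC780636 had 6.79 on NC and 112 on NH, PCS1, phytochelatin synthase, which makes metal-binding peptides, 11.2 and 54.0, Serpin-Z2A, a serine protease inhibitor of the grain, 5.57 and 49.9, and LOC778416 7.37 and 30.8. PH stood at 72.9 for avnla, 16.0 for LOC780636 and 15.1 for Serpin-Z2A, nearer to the floor than NH in each. With the floor at the 25th percentile LOC780636 is read from another probe set, with a log2 difference of 0.21. In the other direction 23 genes fell below the floor. The brightest of them on NC was PEAMT1, phosphoethanolamine N-methyltransferase of phosphocholine synthesis, with 526 on NC and 3.10 on NH. LOC543492 went from 470 to 11.0, PR5, a thaumatin-like pathogenesis-related protein, from 196 to 7.50, and LOC100049056 from 184 to 4.76. LOC542773 went from 165 to 8.60 and LOC542837 from 118 to 10.2. For LOC542773 the probe set of the type meant for a single transcript gave a log2 difference of -1.02, beside -3.75. The 6 falls were of at least 9.60-fold to at least 42.8-fold, and all 6 genes also fell in PH against PC.

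Of the 32695 measured probe sets, 31777 have no gene symbol. Of these 3481 rose (11.0%) and 3279 fell (10.3%), close to the 11.1% and 10.5% of all measured probe sets. The largest rise among those above the floor on both arrays was that of Ta.5810.1.S1_at, with 21.3 on NC and 8.42 on PC without heat, against 6780 on NH and 5391 on PH. Ta.2631.1.S1_at followed with 22.7 on NC and 35.4 on PC, and 5934 on NH and 3078 on PH. In both, the unheated arrays lay near the floor and the heated ones far above it. The largest falls were those of Ta.5633.1.S1_a_at, with 2346 on NC and 1307 on PC without heat, against 13.2 on NH and 36.2 on PH, and of Ta.447.2.S1_a_at, with 3574 on NC and 3681 on PC, and 23.6 on NH and 299 on PH. Both were bright without heat and lay near the floor on NH.

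The lists that follow hold only genes that carry a name. They are to be read against the 76 measured genes of that kind, of which 9.21% rose and 34.2% fell. Among all measured genes with a symbol, 14.5% rose and 18.3% fell. All 3 named genes of the light reactions had negative log2 differences, with a median of -0.98, but petC was the 1 that fell. It encodes the Rieske iron-sulfur protein of the cytochrome b6/f complex and had 7853 on NC, 8082 on PC, 2339 on NH and 4623 on PH. PsbP and PsbO belong to the oxygen-evolving complex of photosystem II. PsbP had 5590 on NC and 2832 on NH, a difference of -0.98, which became -1.20 as the mean over its probe sets. PsbO had 5853 and 3674, a difference of -0.67. In all 3 genes NC and PC lay close together and PH stood between them and NH.

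Of the 4 named genes listed under the Calvin cycle and its control, 3 fell, beside 34.2% of all measured named genes, with a median of -2.36. FBP, fructose bisphosphatase, which acts on the path from triose phosphates to sugars, had 1692 on NC, 1557 on PC, 112 on NH and 316 on PH. PRK, phosphoribulokinase, which renews the acceptor of carbon dioxide, had 5887 on NC, 6877 on PC, 1275 on NH and 3493 on PH. Trx-M, thioredoxin m, a redox switch of chloroplast enzymes in the light, had 3791, 3899, 666 and 1300 in that order. For each of these genes NH was the lowest array and both unheated arrays were the highest. The large subunit of Rubisco, rbcl, had 16201 on NC and 15575 on NH on its brightest probe set, the brightest gene of those with a symbol. Its 11 measured probe sets ranged from -2.68 to 0.11 on the log2 scale, 5 of them past 2-fold, and the brightest one of the type for a single transcript had -1.36. Those 5 were far dimmer, between 28.4 and 140 on NC, while the second brightest had 15434 on NC and a difference of -0.04. The values 16201 and 15575 were also the highest of all counted probe sets on NC and NH.

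Both named genes of the glycolysis list fell. GAPN, non-phosphorylating glyceraldehyde-3-phosphate dehydrogenase, which supplies reducing power in the cytosol, had 1690 on NC, 1598 on PC, 36.6 on NH and 120 on PH. Pgk-1, phosphoglycerate kinase, had 3247, 3085, 292 and 627 in that order. Its place in this list comes from its name, which does not tell whether it serves glycolysis or the Calvin cycle. With heat both lay more than 10-fold below NC in unprimed progeny, by 46.2-fold and 11.1-fold.

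Genes of storage carbohydrates went in both directions. AGA.1, a subunit of ADP-glucose pyrophosphorylase, which makes the precursor of starch, fell from 966 to 117. AGP-S, a further gene of that enzyme, had 524 on NC and 425 on NH, a difference of -0.30. The fructan exohydrolase 1-FEH, which breaks down the fructan stores of wheat, rose from 214 to 689, with 353 on PC and 518 on PH. The related 6-FEH had 20.2 and 16.8, and GBSS-I, a granule-bound starch synthase, was below the floor on both arrays. In this list 1 of 4 measured genes rose and 1 fell.

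Few genes for protection from heat and drought were measured. hsp16.9A, which encodes a small heat shock protein, stayed under the floor at 2.17 on NC and 3.28 on NH. FKBP70, a peptidyl-prolyl isomerase that assists protein folding, had 1120 on NC and 959 on PC without heat, against 2109 on NH and 1577 on PH. Its log2 difference of 0.91 fell short of 2-fold, while both heated arrays lay above both unheated ones. Of the 5 desiccation and cold genes, EM and COR410 were below the floor, and LEA1, EMH2 and Rab15, all under 25 on both arrays, had differences of -0.01, 0.10 and 0.13.

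The redox and detoxification list had a median of -0.31, with 1 of 5 genes rising and 2 falling. The catalase CAT1, which breaks down hydrogen peroxide of photorespiration, fell from 7182 to 2981, and its probe sets gave -1.27 and -1.12. The glyoxalase I gene lgul, which removes methylglyoxal, fell from 311 to 94.9. PCS1, the gene that rose, is described above. PER1, a peroxidase, at 15.9 and 12.8, and GSTZ1, a glutathione S-transferase, at 1004 and 842, had -0.31 and -0.25. Prx1, a redox gene if read by its symbol, matched no list and is not counted here. All 4 of its probe sets fell, as given above.

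Of 3 defence genes 1 rose and 2 fell. XIP-I, an inhibitor of microbial xylanases, rose from 1286 to 9759, with 916 on PC and 6323 on PH, and its second probe set rose by 3.35 on the log2 scale beside 2.92. PR5 fell below the floor. TaGlu1a, a beta-glucosidase that releases defence compounds, fell from 53.8 to 15.1, but PC stood at 21.4 and PH at 20.4, so its unheated arrays were themselves 1.33 apart on the log2 scale.

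Methyl transfer and adenine salvage genes had a median of -1.29, with 3 of 5 falling and 1 rising, beside 34.2% and 9.21% of all measured named genes. SAHH, S-adenosylhomocysteine hydrolase, which clears the product of methyl transfer, had 5532 on NC and 2267 on NH, and its probe sets gave -1.29 and -1.44. COMT1, a methyltransferase of lignin synthesis, fell from 1208 to 491. PEAMT1 fell below the floor as described. PIMT, which repairs damaged aspartyl residues in proteins, rose from 53.0 to 114, a log2 difference of 1.10 that was 0.95 with the pseudocount, and APT1, adenine phosphoribosyltransferase, had 1130 and 1355. The 3 falling genes are read from probe sets whose suffix marks a possible match to more than 1 transcript, and when those are left out 2 genes are left, with a median of 0.68.

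**Figure D5:**
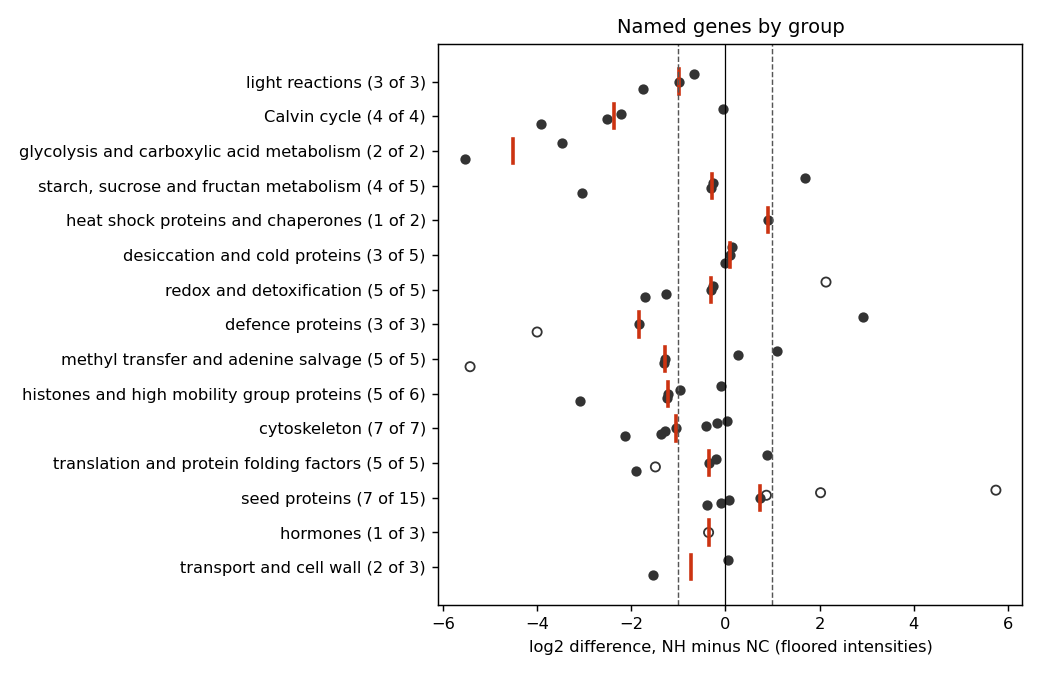
Log2 difference of NH minus NC (horizontal) for each measured named gene (points), by list (vertical, with the number measured of those in the list); open points have an array below the floor and are bounds, red bars are medians, and the dashed lines mark 2-fold. The medians of the light reactions, Calvin cycle, glycolysis, defence, methyl transfer, histone and cytoskeleton lists lie near or to the left of the lower 2-fold line. That of the seed protein list lies between 0.5 and 1, as does FKBP70, the only measured gene of the heat shock and chaperone list.

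Some genes of chromatin and the cytoskeleton fell, and 0 genes of these lists rose, beside 34.2% and 9.21% of all measured named genes. Of 5 measured histone and high mobility group genes all had negative differences and 3 fell, with a median of -1.21. wcH2B-8 had 511 on NC, 548 on PC, 59.8 on NH and 55.9 on PH. wcH2B-6, also an H2B gene, fell from 109 to 46.9, and Hmgb3, a high mobility group protein that bends DNA, from 937 to 398, with both of its probe sets past 2-fold. The H2A genes wcH2A-9 and wcH2A-3 had -0.96 and -0.10. Of 7 cytoskeleton genes 4 fell, with a median of -1.05 that was between -0.99 and -0.91 under 4 of the alternatives. The beta-tubulins tubb1, tubb3, Tubb5 and tubb2 fell from 491 to 112, from 793 to 309, from 101 to 41.6 and from 134 to 64.7. For tubb2 the difference was -0.98 after median scaling, short of 2-fold. For Tubb5, of whose 4 probe sets 2 fell, it was -0.91 with the floor at the 75th percentile and -0.99 as the mean over probe sets. Tubb4, the alpha-tubulin TUBA and the actin-binding Profilin-1 had -0.42, -0.18 and 0.03. All 4 falling beta-tubulins were also lower on PH than on PC, by 1.51 to 2.45 on the log2 scale.

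In the translation list 2 of 5 genes fell, with a median of -0.36. The ribosomal protein genes RPL9 and RPS29 fell from 574 to 155 and from 34.4 to 9.15, the latter -0.66 as the mean over its probe sets. The initiation factor eIF4E, which binds the cap of messenger RNA, had 402 and 738, a difference of 0.88, and Eif4B and eIF-2-beta had -0.36 and -0.21. TEF1 and NCBP, with differences of 0.22 and 0.56, could belong here by their symbols but are not among the 5. Of the transport genes, LTP3, a lipid transfer protein, fell from 2195 to 760, although its second probe set had -0.45, and the plasma membrane proton pump ha1 had 2959 and 3091. The malate transporter gene TaALMT1 was dimmer than the floor. The hormone list held gibberellin oxidase genes, of which GA20ox1d alone was measured, at 15.7 on NC and 11.0 on NH.

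Of the 29 named genes outside the lists, 19 were measured, and 1 rose and 2 fell, with a median of 0.13; the following were chosen after their values were seen. Prx1 had 1876 on NC and 352 on NH. WZF1 had 86.2 and 22.7, with 143 on PC and 15.4 on PH. DMAS1, a deoxymugineic acid synthase of iron uptake, rose from 234 to 504, but had -0.090 on its probe set of the type meant for a single transcript. TCTP had 4043 and 6081, a difference of 0.59. The ubiquitin-conjugating enzyme gene UBC1 had 2471 and 2308, and TBP1, the TATA-binding protein, 192 and 241.

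Some bright genes held their level. Apart from the brightest probe set of rbcl, the brightest genes with a log2 difference under 0.25 in size were LOC542853, with 7218 on NC and 8582 on NH, LOC778410, with 7017 and 7844, and cys1, with 6795 and 7410. LOC543239 had 4520 and 4669, but 5209 on PC and 3679 on PH.

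The labelled tissue was checked against leaf genes. The 6 leaf markers named on this array, rbcl, PRK, FBP, petC, PsbO and PsbP, ran from 1692 to 16201 on NC. Of the 15 seed protein genes, 8 were below the floor on both arrays, all but 1 of the gliadins among them. Gli-8, the gliadin above it, had 15.6 and 16.5, the low molecular weight glutenin gene LMW-GS 24.9 and 18.9, and the amylase inhibitor WMAI-1 18.8 and 17.7. The purothionin gene THI1.1 had 7.53 and 22.5. avnlb, the second avenin-like gene, went from 342 to 571, a difference of 0.74, the median of the list, in which 2 of 7 measured genes rose (avnla and Serpin-Z2A) and 0 fell. The summed intensity of the list was 458 on NC and 492 on PC without heat, against 1392 on NH and 702 on PH, with avnla and avnlb the bulk of it on NH. Of the anther genes, raftin1a was below the floor and raftin1b had 13.4 and 15.1.

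Some of the added control RNAs and wheat controls differed between these arrays, and others did not. The poly-A controls, RNAs mixed in ahead of labelling, had a median NH to NC ratio of 1.87 over 36 probe sets, and the hybridization controls one of 1.02 over 27. The ratio of 3' to 5' signal of ubiquitin, a measure of how evenly RNA was copied along its length, was 0.645 on NC and 0.750 on PC without heat, against 0.929 on NH and 0.992 on PH. For sucrose synthase, a further wheat control, the same ratio was far higher, at 50.9 on NC, 45.2 on PC, 60.2 on NH and 55.1 on PH. Its 5' signal was dim, below the floor on NC and PC. The part of these differences in the results above was not tested. In PH against PC the median ratio was 0.812 for the poly-A controls and 0.829 for the hybridization controls.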

How the data were processed

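Total RNA (6 µg per sample) was hybridized as biotinylated cRNA on wheat arrays of Affymetrix, as the labels' protocols say (the label field names Cy3). What the authors deposited is a linear intensity for each probe set, which the submitters' processing notes credit to MAS5. The sources used here do not state its version, how arrays were scaled or which probe sets were called present. The median intensity was 12.7 on NC and 12.1 on NH, and the number of arrays limits the precision.

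Of 61290 probe sets, 175 controls (AFFX and RPTR) were left out of the counts. Values were floored at the 50th percentile of the rest (12.3) before taking log2, and NC was subtracted from NH. A gene is its brightest probe set by mean floored log2 over the 4 arrays. Symbols are those of the platform annotation, and synonyms those of the gene table of IWGSC CS RefSeq v2.1, where 770 of 771 genes matched, used for names only. Gene lists are patterns on symbols and synonyms; the lists for nitrogen, transcription factors, cell cycle and kinases matched 0 genes. The members and lists were chosen with earlier results of these data known.

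Genes were named by rule: the 12 largest rises and 12 largest falls above the floor on both arrays, the 6 brightest that crossed the floor each way, measured genes of the lists, the 5 brightest with a log2 difference under 0.25, genes whose probe sets disagree past 2-fold, and 2 probe sets without a symbol each way. No test was made. The counting rule was run on simulated data with known changes placed only in bright probe sets, so it does not bear on dim ones or on replicate error. Tried as alternatives were scaling by the median, quantile normalization, a lower floor (4.20, percentile 25) and a higher one (53.6, percentile 75), adding the floor as pseudocount, requiring 3-fold, leaving out probe sets ending in _a_at, _s_at or _x_at, and averaging a gene's probe sets. All steps ran in Python 3.11.15 with pandas 2.3.3, numpy 2.4.6 and, for figures, matplotlib 3.10.9.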

Additional observations from a re-analysis of the deposited data

Results flagged for a closer look

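At 5 probe sets the heat difference passed 2-fold in opposite directions in progeny of unprimed and of primed plants, and the difference was not tested. A pair of probe sets with the same ID number, without a gene symbol, had 449 and 470 on NC, 11.0 and 9.38 on NH, 7.92 and 15.9 on PC, and 129.9 and 137 on PH.

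Wheat genes among the control probe sets, which no count above uses, also carried signal. The sucrose synthase probe set at the 3' end, from the gene of an enzyme that splits sucrose, had an NH to NC ratio of 3.90 (1163 against 298), and the middle probe set had 339 against 67.8. The 5' probe set had 19.3 against 5.86, the latter below the floor. In PH against PC the first ratio was 3.70. Ubiquitin, the tag for protein breakdown, had ratios of 1.90 at its 3' end (4439 against 2334), 1.32 at its 5' end and 1.03 in the middle. The 18S ribosomal RNA probe set had a ratio of 1.05. The poly-A controls had a median ratio of 1.87, as given above.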

How the results depend on the processing

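Under the alternatives, 672 of 691 values of 105 named genes kept their side of 2-fold, 15 fell short of it and 3 came to pass it. Of the 672, 7 values of 6 genes under 2-fold changed sign (rbcl, UBC1, LOC543239, GSTZ1, Glc1 and LEA1). In 1 further case, that of DMAS1, the rise was lost and the sign changed. It had -0.090, down from 1.11, when probe sets ending in _a_at, _s_at or _x_at were left out. With the floor at the 75th percentile, 2388 probe sets rose and 2176 fell, and without those endings 2366 and 2238, since fewer were tested. At 3-fold the counts were 1580 and 1916 for probe sets and 46 and 74 for genes, so that falls outnumbered rises among probe sets, where rises led at 2-fold. The methyl transfer median turned to 0.68 over the 2 genes left without those endings. The cytoskeleton median was -0.98 after median scaling, -0.91 with the floor at the 75th percentile, -0.93 with the pseudocount and -0.99 as the mean over probe sets. The seed protein median was 2.18 over the 2 genes above the higher floor. Median scaling gave 3995 rising and 3220 falling probe sets and quantile normalization 3406 and 3582, so which direction led depends on the scaling. No paired analysis was possible because each group has 1 array. No values could be had for 44 pairs of a gene or list with a setting. Near the floor a fold is a bound, so changes of dim genes are understated in both directions.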
